A study of Homo sapiens with 16 samples.

Results

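The transcripts of 10 genes of the circadian clock were followed in SUM225 cells treated with a HER2 kinase inhibitor. They were PER1, PER2, PER3, CRY1, CRY2, ARNTL, CLOCK, DBP, BHLHB2 and BHLHB3, and every probe that the table pairs with 1 of these symbols was taken. Of the 10 genes, 9 had a probe, among 18631 gene symbols in all. The 9 genes had 11 probes of the 24526 in the table, 2 each for ARNTL and PER2. No probe carried the symbol PER3, which was not analysed here. In the RefSeq gene table ARNTL is named BMAL1, BHLHB2 is BHLHE40 and BHLHB3 is BHLHE41. SUM225 is a breast cancer line with HER2 amplification and over expression. The labels give its medium as Ham's F-12 with 5% serum, 5 µg/ml insulin and 1 µg/ml hydrocortisone. The paper differs and describes SUM225 as cultured without serum, EGF or insulin. CP724,714, a small molecule inhibitor of the HER2 kinase, was added at 1 µM, with a parallel culture taken at 0 h and at each 3 h interval until 45 h. Each of the 16 cultures gave RNA for 1 Illumina bead array, with no replicates. The 0 h culture was the only 1 without time in the inhibitor, and without an untreated series here, time in culture and the inhibitor cannot be told apart.

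The circadian clock is a transcriptional feedback loop. ARNTL and CLOCK bind as a pair to E-box sequences and activate PER, CRY and other genes, and the PER and CRY proteins return to the nucleus and repress that activity. BHLHB2 and BHLHB3 are further repressors that bind E-boxes, and DBP is an activator that binds D-box sequences and carries clock output to other genes. In a synchronised culture the transcripts of these genes rise and fall with a period of about a day, with ARNTL out of phase with PER2 and DBP. Glucocorticoids, serum and growth factors are known to act on the clock, in part through transcription of PER1. The cultures here were not described as synchronised. For MCF10A cells and lines derived from them, treated with the same inhibitor, the paper describes fresh medium at the start of treatment. Whether SUM225 was handled in that way is not stated, and an effect of fresh medium was not tested.

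The arrays were compared by median signal and number of detected probes, and RNA quality was not examined here. The median signal intensity ranged from 242 to 384, and between 14110 and 15073 probes had a detection p-value under 0.05. Precision throughout is limited by there being 16 arrays. Of 8 markers of HER2-amplified breast epithelium on the array, all 8 were detected on all 16 arrays, with signals from 461 to 72059. Of 8 markers of blood cells, fibroblasts and endothelium, 2 (PTPRC and PDGFRB) were detected on 0 arrays and 2 (CD14 and PECAM1) on all 16, with signals over the list from 162 to 4563. Some markers moved with time. VWF, of endothelium, rose by 2.51 ± 0.28 (SE) log2 units over 45 h (limma, adjusted p = 4.03e-07) and CD14 by 0.34 ± 0.14 (adjusted p = 0.0499), while PECAM1, also of endothelium, had a change of -0.56 ± 0.23 (adjusted p = 0.0537) and the collagens COL1A1 and COL1A2, of fibroblasts, of -0.45 and -0.57 (adjusted p = 0.109 and 0.105). Among the epithelial markers the keratins KRT8 and KRT18 fell by 0.68 and 0.74 (adjusted p = 2.14e-05 and 7.73e-06). The changes of ERBB2 (0.02), KRT19 (0.03), GRB7 (0.13), STARD3 (0.19), CDH1 (-0.10) and TACSTD1 (-0.37) did not pass. Signals of ERBB2 (68946 to 72059) and KRT19 (66523 to 71696) were near the highest of any probe on an array (71727 to 74152). Those of GRB7 reached 71265. A change so near the top of the scale may be hidden, so a stable level of these 3 was not shown. The part of the markers in the results below was not tested. In total RNA of a culture, fewer cells with a transcript and less of it per cell cannot be told apart. Values below are log2 normalised intensities unless a signal, on the linear scale of the scanner, is named. Levels of different probes were not compared.

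The repressors PER2, CRY1, CRY2 and BHLHB3 rose with time in the inhibitor, and the activators ARNTL and CLOCK had no detectable trend. The rise of PER2, CRY2 and BHLHB3 was between 1.06 and 1.29 log2 units over 45 h, a fold of 2.09 to 2.44, and that of CRY1 was 0.71, a fold of 1.64. The test was the first-order coefficient of a cubic course fitted by limma to each probe, with Benjamini-Hochberg adjustment over the 16110 probes tested. Of the 10 clock gene probes tested, 4 rose and 0 fell. In the same test 47.7% of all probes had a trend, 26% rose and 21.7% fell, so a trend in 4 of 10 was near the background. The median linear change was 0.38 over the 10 probes and 0.05 over all probes tested.

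**Figure D1:**
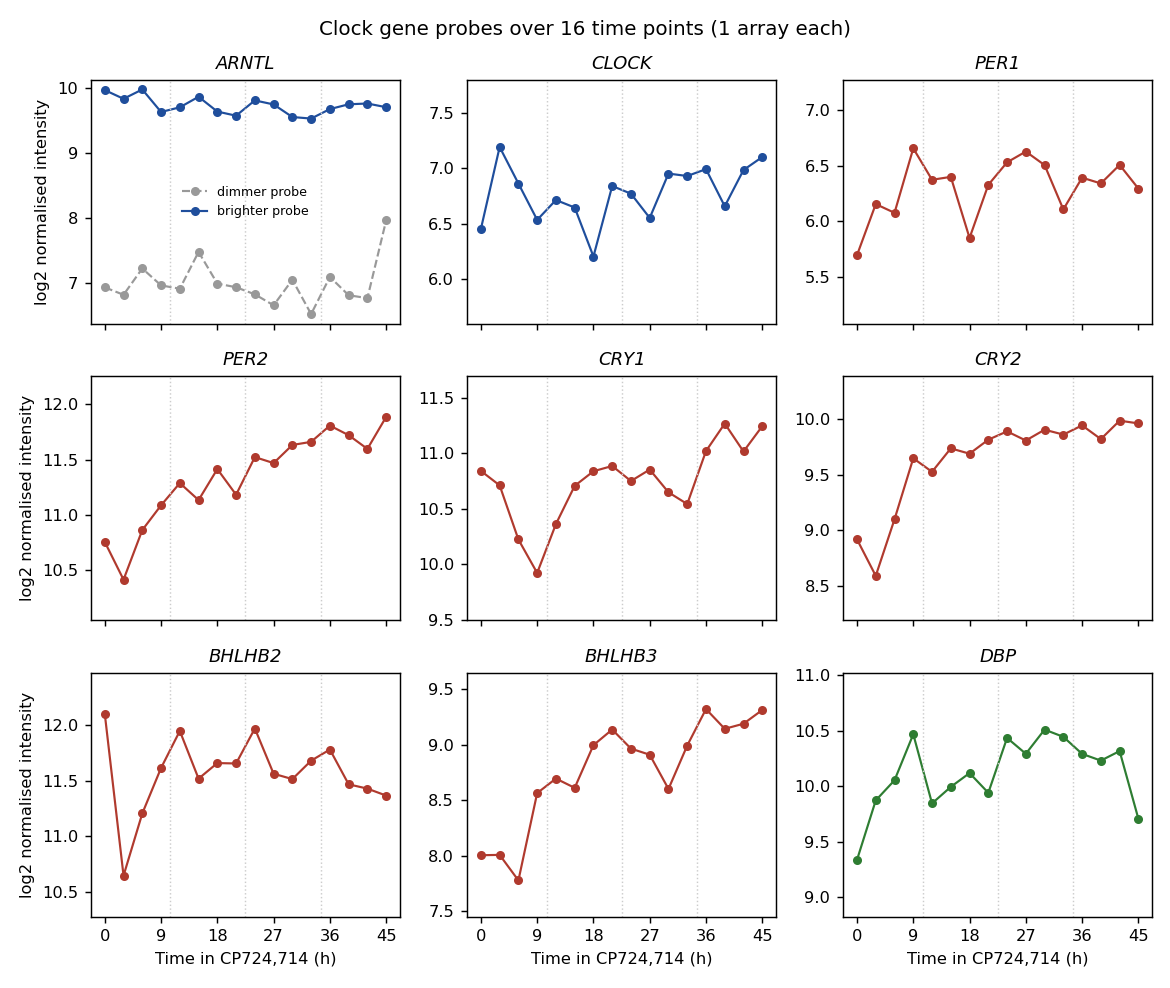
Log2 normalised intensity of the tested clock gene probes against hours in CP724,714, with 1 point per array and dotted lines between the sets of 4 consecutive arrays. The red PER2, CRY2 and BHLHB3 points lie lowest at 3 or 6 h and highest between 36 and 45 h, and both ARNTL probes (blue, and grey dashed for the dimmer) lack such a climb.

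PER2, a core repressor, had values of 10.76, 10.42, 10.86 and 11.09 at 0, 3, 6 and 9 h, then 11.29, 11.13, 11.41 and 11.18 from 12 to 21 h, 11.52, 11.47, 11.63 and 11.66 from 24 to 33 h, and 11.81, 11.72, 11.60 and 11.88 from 36 to 45 h. The lowest value was that at 3 h and the highest that at 45 h, a range of 2.76-fold. All 4 arrays from 36 to 45 h were above all arrays from 0 to 21 h. The linear change was 1.18 ± 0.12 (SE) log2 units over 45 h (limma, adjusted p = 1.51e-07), and a departure from a straight line was not found (adjusted p = 0.254). The other PER2 probe, ILMN_1794374, was detected on 0 of 16 arrays, with signals from 128 to 171, and was not tested. The PER2 values therefore rest on ILMN_1738095 alone, with signals from 1182 to 4594.

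CRY2, a partner of the PER proteins in repression, had values of 8.92, 8.59, 9.10 and 9.65 on the arrays of the first 9 h. From 12 h on its values lay between 9.53 and 9.99, all but that at 12 h above each earlier array. Most of the climb was thus between 3 and 9 h. The linear change was 1.06 ± 0.13 (SE) log2 units (adjusted p = 1.81e-06), and CRY2 was the only 1 of the 10 probes to depart from a straight line (adjusted p = 0.0117, against 19.3% of all probes).

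BHLHB3 was at most 8.01 on the first 3 arrays, with 7.78 at 6 h, and reached 8.56 at 9 h. Later values lay between 8.60 and 9.32, all above those of the first 4 arrays. The highest was at 36 h, and the range was 2.92-fold. The linear change was 1.29 ± 0.18 (SE) log2 units (adjusted p = 6.29e-06), larger than that of 97.2% of all probes tested.

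CRY1 followed another course. It was 10.84 at 0 h and 10.71 at 3 h, then 10.22 at 6 h and 9.92 at 9 h, and was back at 10.71 at 15 h and 10.88 at 21 h. It was lower again at 30 h (10.65) and 33 h (10.54), and highest at 39 h (11.27). The low arrays at 9 h and 33 h were 24 h apart, but the value at 33 h was above those at 6, 9 and 12 h. The linear change was 0.71 ± 0.19 (SE) log2 units (adjusted p = 0.00466), with a 95% interval of ± 0.40.

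The 4 calls were made again without the arrays from 0 to 9 h, an alternative added after the data were seen. All 4 genes stayed past the threshold over the later arrays, as did 29.5% of all probes. The linear change, scaled to 45 h, was then 0.87 ± 0.15 (SE) for PER2, 0.80 ± 0.20 for CRY1, 0.72 ± 0.23 for BHLHB3 and 0.45 ± 0.13 for CRY2 (adjusted p = 0.000355, 0.00551, 0.0235 and 0.0174). The changes of BHLHB3 and CRY2 were smaller than over all arrays by more than 1.5-fold.

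The arrays were also divided into 4 sets of 4 consecutive time points, starting with the arrays at 0, 12, 24 and 36 h, a division noticed earlier in these data. The labels name no batch, and whether the sets stand apart was not tested here. The mean of PER2 over the 4 arrays of a set was 10.78, 11.25, 11.57 and 11.75, and that of CRY2 was 9.06, 9.69, 9.87 and 9.93. For BHLHB3 the set means were 8.09, 8.86, 8.87 and 9.24, and for CRY1 10.42, 10.70, 10.70 and 11.14. When a line in hours was fitted with a level for each set, 0 of the 10 probes had a trend, against 0.9% of all probes. The estimate was then 0.78 ± 0.52 (SE) for PER2 (adjusted p = 0.515), 1.41 ± 0.65 for CRY2 (0.321) and 1.11 ± 0.69 for BHLHB3 (0.486), all upwards with wider errors. For CRY1 it was -0.73 ± 0.76 (0.71), the opposite direction. The means of the middle sets were nearly equal for BHLHB3 and CRY1. A difference between sets in the cells and one in the arrays cannot be told apart.

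The remaining repressors had no linear trend. BHLHB2, known as an early responder to many stimuli, had its highest value at 0 h (12.10) and its lowest at 3 h (10.64), a difference of 1.46 log2 units or 2.75-fold between single arrays. The next arrays, 6 to 12 h, gave 11.20, 11.61 and 11.95, and from 15 to 45 h it lay between 11.37 and 11.97. The value at 3 h was below that of every other array, and by 12 h the level was near that at 0 h. The linear change was 0.04 ± 0.24 (SE, adjusted p = 0.913), and a cubic course could not follow the dip (F-test, adjusted p = 0.531). The direction of this change was downwards with cyclic loess, with the set as a factor, without the arrays from 0 to 9 h and without the 3, 6 or 36 h array alone, and was past the threshold in none of these.

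PER1 was dim, with signals from 204 to 349, and was detected on 13 of the 16 arrays. It was not detected at 0, 6 and 18 h. Its lowest value was at 0 h (5.69) and its highest at 9 h (6.66), and from 21 to 45 h it lay between 6.11 and 6.63. The linear change of 0.34 with a 95% interval of ± 0.45 did not pass the test (adjusted p = 0.212). That interval includes no change and rises larger than the estimate, so a trend of PER1 was left undecided.

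The activators were measured by 3 probes. The brighter ARNTL probe, ILMN_2405305, ranged only from 9.53 at 33 h to 9.98 at 6 h, or 1.37-fold. Its values were 9.97, 9.84 and 9.98 on the first 3 arrays and between 9.53 and 9.87 on all others, so those at 0 and 6 h were the highest. The linear change was -0.20 with a 95% interval of ± 0.23 (adjusted p = 0.134). With cyclic loess normalization it was -0.30 and past the threshold (adjusted p = 0.0311). The dimmer ARNTL probe, ILMN_1731476, had a change of 0.12 ± 0.46 (95% interval, adjusted p = 0.683), and its value at 45 h (7.96) was above that of any other array. Without that array its change was -0.27. CLOCK, the partner of ARNTL, had signals from 239 to 352, close to the background. Its values ran from 6.21 at 18 h to 7.19 at 3 h, and its change was 0.29 ± 0.44 (95% interval, adjusted p = 0.284).

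DBP, the output activator, depended on time without a clear linear trend. The first 4 arrays gave 9.34, 9.87, 10.05 and 10.47, followed by 9.85 at 12 h and at most 10.12 up to 21 h. From 24 to 42 h it lay between 10.23 and 10.51, and it ended at 9.71. The lowest arrays were thus the first and the last. The cubic F-test was past the threshold (adjusted p = 0.017) and the linear change of 0.43 ± 0.18 (SE) was not (adjusted p = 0.0567). Without the 45 h array the linear change was 0.70 (adjusted p = 0.00477), without the 9 h array 0.54 (adjusted p = 0.00678), without the 21 h array 0.43 (adjusted p = 0.0474), and without the 0 h array 0.19 (adjusted p = 0.401). It was also past the threshold with median scaling (0.46, adjusted p = 0.0384) and with array weights (0.51, adjusted p = 0.00818). In the cubic F-test 5 of the 10 probes depended on time, PER2, CRY1, CRY2, BHLHB3 and DBP, against 51.3% of all probes.

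**Figure D2:**
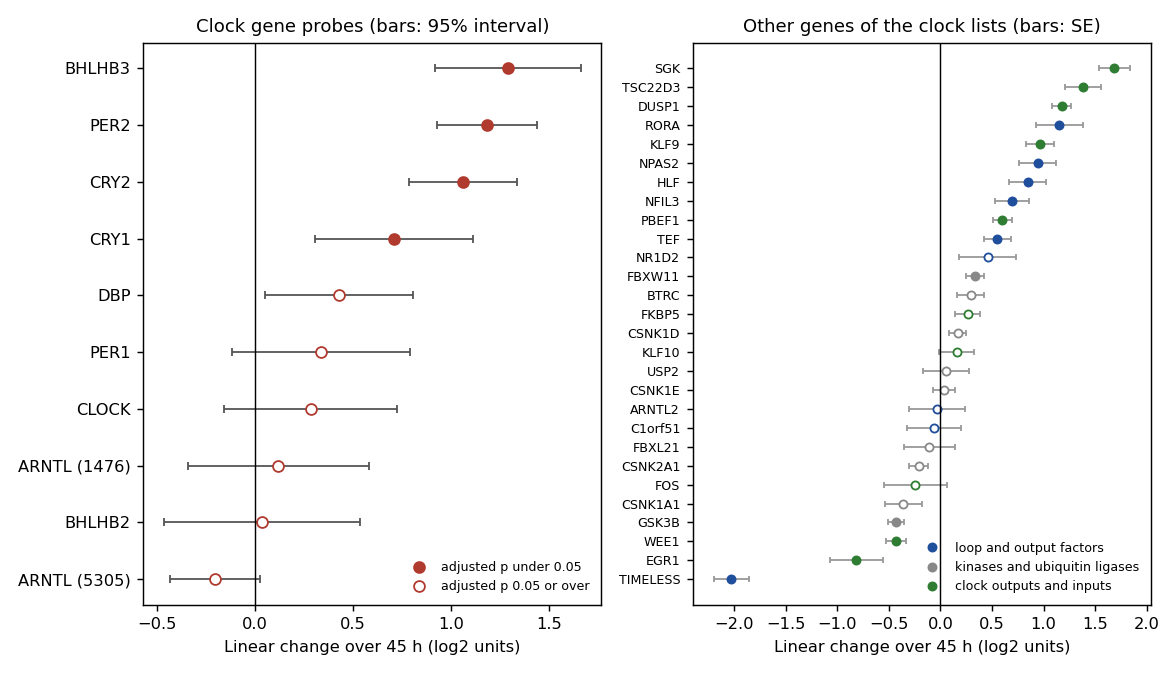
Linear change over 45 h in log2 units, left for the 10 tested clock gene probes with 95% intervals (the 2 ARNTL probes by the last digits of their identifiers) and right for other genes of the clock lists with SE. Filled points are past an adjusted p of 0.05, and all 4 filled points on the left lie above 0.

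The E-box letters through which ARNTL and CLOCK act were looked for in 250 bases of each gene, those that the RefSeq promoter table (GRCh38.p14) places before a start. For PER2 and ARNTL this window lies inside the span that RefSeq gives the gene, so that their outermost start was not searched. The windows of the genes with a match are shown 5′ to 3′, with the matches in capitals, because the risers BHLHB3 and CRY1 and the genes without a trend, PER1 and BHLHB2, both hold 1. CACGTG, which reads the same on both strands, was in the windows of BHLHB3, PER1 and BHLHB2, and 6.49% of 27305 promoters hold it. Its variant CACGTT, read on either strand, was in those of PER2 and, on the opposite strand, of CRY1, and 4.5% of promoters hold it. The windows are BHLHB3 at chr12:26125038-26125287, minus strand, CRY1 at chr12:107093550-107093799, minus strand, PER1 at chr17:8152405-8152654, minus strand, and BHLHB2 at chr3:4979187-4979436, plus strand. Of PER2, 26 bases around the match are given (chr2:238288792-238288817, minus strand).
BHLHB3: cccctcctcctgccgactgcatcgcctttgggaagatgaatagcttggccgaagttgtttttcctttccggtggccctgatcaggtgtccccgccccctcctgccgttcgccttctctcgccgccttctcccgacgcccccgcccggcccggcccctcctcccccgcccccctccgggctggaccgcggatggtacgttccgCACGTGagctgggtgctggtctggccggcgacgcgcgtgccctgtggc
CRY1: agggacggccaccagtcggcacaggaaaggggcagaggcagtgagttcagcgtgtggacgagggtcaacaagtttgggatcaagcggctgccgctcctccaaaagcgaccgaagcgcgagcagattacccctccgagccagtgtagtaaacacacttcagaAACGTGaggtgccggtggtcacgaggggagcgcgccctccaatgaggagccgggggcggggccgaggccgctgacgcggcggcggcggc
PER1: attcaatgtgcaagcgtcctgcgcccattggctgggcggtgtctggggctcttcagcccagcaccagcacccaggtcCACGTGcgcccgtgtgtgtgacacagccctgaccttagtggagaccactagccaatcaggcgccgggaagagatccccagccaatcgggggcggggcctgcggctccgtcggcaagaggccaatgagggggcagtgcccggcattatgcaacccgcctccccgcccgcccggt
BHLHB2: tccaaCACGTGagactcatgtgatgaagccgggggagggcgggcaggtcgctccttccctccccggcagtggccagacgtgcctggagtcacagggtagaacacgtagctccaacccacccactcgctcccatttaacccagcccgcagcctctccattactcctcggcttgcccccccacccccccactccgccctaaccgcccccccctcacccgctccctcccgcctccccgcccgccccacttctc
PER2: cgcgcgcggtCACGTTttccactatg

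The match lay 48 bases before that start in BHLHB3, 89 in CRY1, 173 in PER1, 197 in PER2 and 245 in BHLHB2, counted from its first base. The windows of CRY2, ARNTL, CLOCK and DBP held neither form. The letters TTATGTAA of the D-box, TGACGTCA of the cyclic AMP response element and TAGGTCA of the ROR element, on either strand, were in none of the windows of the 9 measured genes. They were in 0.861%, 1.77% and 1.64% of all promoters. A match is a description of letters in this window and does not show binding.

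A daily rhythm was tested with a cosine and a sine of a 24 h period beside a straight line in hours. Of the 10 clock gene probes 0 passed the F-test of these terms (limma, adjusted over 16110 probes), against 19 of all probes, or 0.118%. At an unadjusted p under 0.05 there were 2 of the 10, CRY1 and DBP, against 12.1% of all probes. The 45 h held less than 2 periods, and the low CRY1 arrays at 9 and 33 h were each the last of a set.

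Beside a straight line CRY1 had the largest fitted amplitude, 0.27 ± 0.07 (SE) log2 units (adjusted p = 0.212), with its peak at 20.7 ± 1.03 h and its trough at 8.67 h. That of DBP was 0.25 ± 0.09 (adjusted p = 0.382), with the peak at 8.02 ± 1.36 h. The fitted peak of DBP thus fell near the fitted trough of CRY1. With a cubic course beside the rhythm CRY1 passed the threshold, with an amplitude of 0.31 and a peak at 19.6 h (adjusted p = 0.0178), as did 3.24% of all probes. With a level for each set in place of the straight line, the amplitude of CRY1 was 0.24 (adjusted p = 0.91). The fitted peak of DBP then moved to 13.5 h. That fit does not remove a trend within a set, so its amplitudes are not directly comparable with the others.

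BHLHB3 followed with an amplitude of 0.21 ± 0.09, and those of the other genes were at most 0.15. This order did not hold with set levels in place of the line. CLOCK (0.47), BHLHB2 (0.41), the dimmer ARNTL probe (0.32) and DBP (0.28) were then above CRY1, and the lowest adjusted p was 0.91. PER2 (0.08 ± 0.06) and the brighter ARNTL probe (0.05 ± 0.05) had the smallest in the fit with a straight line. Their fitted peaks at 11.6 ± 2.94 h and 21.6 ± 4.08 h carry errors of hours, and an order of phases was not detectable.

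**Figure D3:**
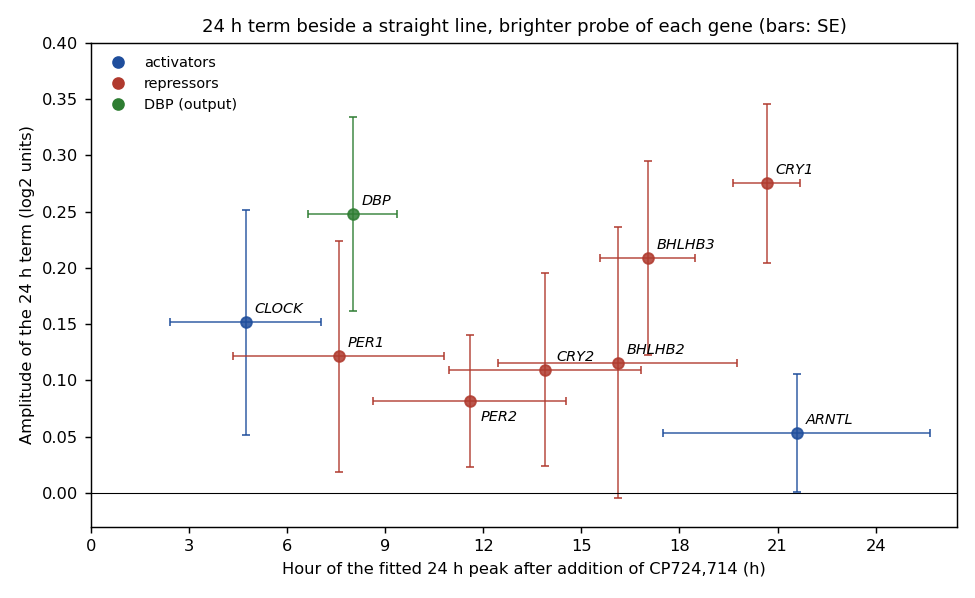
Amplitude of the 24 h term in log2 units against the hour of its fitted peak, for the brighter tested probe of each gene, with SE on both axes. CRY1 and DBP have the largest amplitudes, 0.27 and 0.25, with peaks near 20.7 and 8.02 h, and no gene passed the adjusted test.

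The phase relation between activators and repressors was examined by correlation over the 16 arrays, after a straight line in hours was removed from each gene. The 2 activators were each set against PER1, PER2, CRY1, CRY2, BHLHB2, BHLHB3 and DBP. Adjacent arrays are not independent in time, so that each p is a description. Of these 14 relations 12 had a negative Pearson r, and 0 passed the permutation test after adjustment over the 28 p-values computed (lowest adjusted p = 0.218). The 14 are not separate observations, because they share the 2 activator courses. PER2, CRY2 and BHLHB3 also moved alike, with r of 0.86 to 0.91 before the line was removed. The share of negative r over all probes was not computed. At an unadjusted p under 0.05 there were 3 by Pearson r and 1 by Spearman rho.

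ARNTL had r = -0.33 with PER2 (rho = -0.33), r = -0.44 with CRY2 (rho = -0.45) and r = -0.47 with BHLHB3 (rho = -0.56), with permutation p = 0.219, 0.0856 and 0.0699 for r and 0.218, 0.085 and 0.0251 for rho (n = 16, adjusted p = 0.383, 0.218 and 0.218 for both). Its relation with CRY1 was positive, r = 0.45 (rho = 0.25, permutation p = 0.0818 and 0.351, adjusted p = 0.218 and 0.525). Without the arrays at 9 and 21 h, the farthest from the median of ARNTL, these were -0.42, -0.27, -0.29 and 0.42.

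CLOCK had r = -0.59 with PER2 (rho = -0.34), r = -0.54 with CRY2 (rho = -0.40) and r = -0.57 with BHLHB2 (rho = -0.46), with permutation p = 0.018, 0.0318 and 0.0249 for r and 0.201, 0.122 and 0.0786 for rho (n = 16, adjusted p = 0.218 each for r and 0.383, 0.266 and 0.218 for rho). Without the arrays at 3 and 18 h they were -0.10, -0.17 and -0.33 (permutation p = 0.726, 0.55 and 0.251). These arrays were the farthest from the median of CLOCK, and leaving them out also narrows its range. Whether the relations rest on them cannot be told from this. At 3 h the residual of CLOCK was 0.54 while those of PER2 and CRY2 were -0.41 and -0.59. At 18 h the residual of CLOCK was -0.54. With set means removed in place of the line, 0 of 14 relations passed the adjusted test, and r was -0.47 for ARNTL with PER2 and -0.42 for CLOCK with PER2. With median scaling 0 passed (lowest adjusted p = 0.0963), the r of ARNTL with PER2 and CRY2 was -0.08 and -0.09, and that of CLOCK with PER2, CRY2 and BHLHB3 was -0.70, -0.60 and -0.56. With levels in place of residuals 0 passed, and the r of CLOCK with PER2 was 0.10 (rho = 0.36) and with CRY2 -0.01 (rho = 0.45). Without the arrays at 3 and 18 h these r were 0.64 and 0.53, opposite in direction to those of the residuals.

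**Figure D4:**
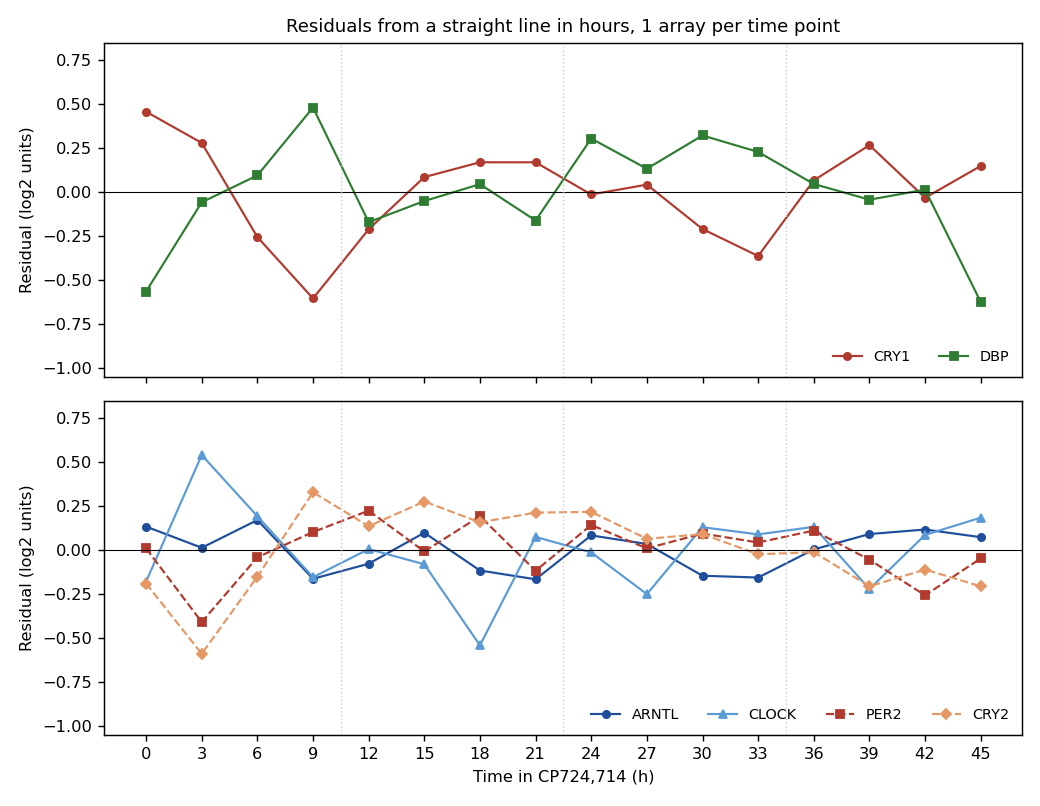
Residuals from a straight line in hours, in log2 units, for CRY1 and DBP (top) and for ARNTL, CLOCK, PER2 and CRY2 (bottom), with 1 point per array and dotted lines between the sets of 4 arrays. CRY1 is lowest at 9 h and low again at 33 h, where DBP is above its line, and CLOCK at 3 h stands opposite to PER2 and CRY2.

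The other factors of the loop were read from a list of 12 genes, of which 10 were tested. Of these, 6 rose, 1 fell and 3 had no trend, with a median linear change of 0.62. Over all probes 47.7% had a trend, 26% upwards and 21.7% downwards. RORA, a nuclear receptor that activates ARNTL, rose by 1.15 ± 0.23 (SE) log2 units (adjusted p = 0.000324). Of the other RORA probes tested 1, detected on 3 arrays, rose by 0.76 and 1 had a change of 0.26 that did not pass (adjusted p = 0.201). NPAS2, which can take the place of CLOCK, rose by 0.94 ± 0.18 (adjusted p = 0.00021). HLF and TEF, relatives of DBP, rose by 0.84 ± 0.18 and 0.55 ± 0.13, and NFIL3, a repressor at the same D-box, rose by 0.69 ± 0.16 (adjusted p = 0.000534, 0.00186 and 0.00143).

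TIMELESS, which in mammals also acts at the replication fork, fell by 2.03 ± 0.17 (adjusted p = 1.34e-08), from at most 11.80 at 9 h to 9.87 at 42 h. NR1D2, a repressor of ARNTL, had a change of 0.46 ± 0.28 (adjusted p = 0.183), C1orf51, another repressor of the loop, of -0.06 ± 0.26 (adjusted p = 0.867) and ARNTL2, a paralog of ARNTL detected on 4 arrays, of -0.03 ± 0.27 (adjusted p = 0.933). NR1D1 and RORB were detected on 0 arrays and were not tested.

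A further list held kinases, ubiquitin ligases and a deubiquitinating enzyme that act on PER and CRY proteins. Of its 9 tested genes 1 rose, 1 fell and 7 had no trend, against a trend in 47.7% of all probes, with a median change of 0.04. FBXW11, part of a ubiquitin ligase for PER proteins, rose by 0.34 ± 0.09 (adjusted p = 0.00395), and the kinase GSK3B fell by 0.43 ± 0.08 (adjusted p = 0.000149). The casein kinases CSNK1D and CSNK1E had changes of 0.17 ± 0.08 (adjusted p = 0.101) and 0.04 ± 0.11 (adjusted p = 0.806). The brightest probe of CSNK2A1 had no trend (-0.21, adjusted p = 0.0682), while its dimmer probes fell by 0.31 and 0.74.

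Of 10 tested genes known as outputs of the clock or as inputs to it, 5 rose, 2 fell and 3 had no trend, against 26% and 21.7% of all probes that rose and fell. PBEF1 (NAMPT in RefSeq), an enzyme of NAD synthesis, rose by 0.60 ± 0.09 on its brighter probe, and the dimmer had a change of 0.23 (adjusted p = 0.211). Genes known to respond to glucocorticoids that rose were SGK (1.69 ± 0.15), TSC22D3 (1.38 ± 0.18), DUSP1 (1.17 ± 0.10) and KLF9 (0.97 ± 0.13), while FKBP5 had a change of 0.26 ± 0.12 (adjusted p = 0.0878). WEE1, a mitotic kinase, fell by 0.43 ± 0.10 (adjusted p = 0.00114) and EGR1 by 0.81 ± 0.25 (adjusted p = 0.0123). FOS (-0.24 ± 0.30) and KLF10 (0.16 ± 0.17) did not pass (adjusted p = 0.548 and 0.476). FOS and EGR1, immediate early genes, had values of 9.92 and 10.68 at 0 h and of 8.18 and 9.28 at 3 h, where BHLHB2 was also lower than at 0 h. Over the 3 lists 16 of 29 genes had a trend, near the 47.7% of all probes. With the set as a factor 0 of the 29 did (0.9% of all probes). In the rhythm fit beside a straight line 0 of the 29 had a 24 h rhythm (0.118% of all probes).

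The members were last set against all other genes detected on every array, by Pearson r over the 16 arrays and with no test, among 12344 probes. The closest to CRY2 was FXYD3 (r = 0.98), to BHLHB3 PERP (0.96) and to DBP FLJ21820 (0.92). CRY1 was closest to MARVELD3 (0.90) and BHLHB2 to CEBPB (0.90). For the activators the closest was less close, WDHD1 for ARNTL (0.80) and RPS20 for CLOCK (0.76). Each r is the highest picked from 12344 probes over 16 arrays, and courses with a trend can share it. The difference in closeness was therefore not interpreted. Among the members PER2 and CRY2 had r = 0.91, CRY2 and BHLHB3 0.87, and PER2 and BHLHB3 0.86, with time as a shared trend.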

How the data were processed

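Total RNA of 16 cultures, 1 per time point, was hybridised to Illumina bead arrays. The deposited table gives signal intensities without background subtraction or normalization, with detection p-values. No time point had a replicate, so that errors are deviations around each fitted course.

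Intensities were corrected with limma 3.58.1 in R 4.3.3 (neqc, offset 16, quantile normalization, log2). Probes detected (p-value under 0.05) in 3 or more cultures were tested by lmFit and eBayes on a cubic in hours, or on a straight line with 24 h cosine and sine terms, two-sided, Benjamini-Hochberg threshold 0.05. The brightest tested probe stood for a gene in lists and correlations, which used 100000 permutations. On simulated data for 16110 probes 75% of linear changes of 1 log2 unit were recovered, with 5.06% false calls, and 82% of rhythms of amplitude 0.5, larger than any fitted to a member, with 5.75% false. The simulated noise was independent between arrays, without sets, and 200 probes had each kind of change. In the data far more probes had a trend, so these rates may not hold here. Rhythmic probes called in the linear test were not counted as false. Named genes were all member probes, the loop list, listed genes past the threshold and the closest gene to each member. The markers,  FOS, KLF10, FKBP5, CSNK1D, CSNK1E and CSNK2A1 were added after their values were seen. Some genes that this rule names are not reported here, and list counts include them. Members and lists were chosen with earlier results of these data known. Promoters came from RefSeq (GRCh38.p14), with all 10 members matched. Figures were drawn with matplotlib 3.10.9.

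The alternatives were other background, offset and normalization settings, filters, array weights, a step or sets as terms, other periods and trends, and each array left out.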

Additional observations from a re-analysis of the deposited data

How the results depend on the processing

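The rises of PER2, CRY1, CRY2 and BHLHB3 remained upwards and past the threshold under the background, offset, normalization and filter settings, array weights, the step between 21 and 24 h and each array left out, and not with the set as a factor.

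With the set as a factor 0 member probes and 0 of the other clock genes had a linear trend, and BHLHB2 (-1.44) and CRY1 (-0.73) changed sign. With 3 steps between sets beside the cubic 1 member probe depended on time. Without the arrays from 0 to 9 h, added after the data were seen, 3 did, and the change of BHLHB2 was -0.46. The step between 21 and 24 h left 7 of the other clock genes, 2 curved member probes, and changes of -0.044 for CLOCK, -0.31 for DBP and -0.51 for PER1. Curved probes numbered 2 with median scaling and 3 with array weights. A cubic beside the rhythm gave 1 rhythmic probe, CRY1. The dimmer ARNTL probe reversed with array weights (-0.067) and BHLHB2 with cyclic loess (-0.015), neither past the threshold. The causes were not tested.

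With each array left out, 4 to 5 member probes had a trend, 5 to 6 depended on time, 1 to 3 were curved, 0 were rhythmic, and 15 to 19 of the other clock genes had a trend. The change of BHLHB2 then ranged from -0.28 (without 3 h) to 0.27 and that of the dimmer ARNTL probe from -0.27 (without 45 h) to 0.22. No paired analysis was possible because no time point was measured on more than 1 array. Signals near the background limit PER1, CLOCK and the dimmer ARNTL probe.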
